A study of Mus musculus with 16 samples.

Results

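The Hox genes are homeobox transcription factor genes that lie in 4 clusters (Hoxa, Hoxb, Hoxc and Hoxd) and are numbered by paralogue group along each cluster. All genes of the deposited table whose mouse symbol is Hoxa, Hoxb, Hoxc or Hoxd followed by a number were taken, which gave 21 of the 13964 genes: 8 Hoxa, 6 Hoxb, 4 Hoxc and 3 Hoxd. The mouse annotation lists 39 such genes, and the other 18 were not analysed here. RNA was sequenced from aortic and pulmonary valves that had been laser-microdissected from C57BL/6 embryos at stage E14.5 (embryonic day). Each valve was taken from wild-type and from Jag1flox;Nkx2.5-Cre mutant embryos, which gave 4 groups of 4 libraries. Jag1 encodes a Notch ligand, and Nkx2.5-Cre removes floxed sequence in cells with activity of the cardiac gene Nkx2-5, so cells without that activity keep the allele. The mutants carry both the floxed allele and Cre, while the controls are labelled WT, so floxed Jag1 and Cre cannot be told apart. The labels place every aortic library in library batch 1 and every pulmonary one in batch 2, and the valves and these batches cannot be told apart. The libraries came from 5 litters, and the labels do not tie a valve to an embryo. If libraries of different valves share an embryo and vary together, p-values for the mean of both valves would be too small. Those for differences between valves, the interaction included, would then be too large.

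Along a Hox cluster, low-numbered genes lie at the 3′ end and are switched on first and furthest towards the head, and high-numbered genes follow later and further towards the tail. The set of Hox genes that a cell keeps active therefore marks the body level it came from, in neural tissue, body-wall mesenchyme, muscle connective tissue and neural crest. The cardiac neural crest that helps to build the outflow septum comes from hindbrain levels where paralogues 1 to 3 are active, and Hox proteins bind DNA together with the TALE homeodomain proteins Pbx and Meis.

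All 21 genes are protein-coding in the GRCm38 annotation. Hoxa2 to Hoxa10 lie on the minus strand of chromosome 6 between 52162417 (Hoxa2) and 52240854 (Hoxa10), the Hoxb genes on the plus strand of chromosome 11 between 96271457 (Hoxb9) and 96321638 (Hoxb4), the Hoxc genes on the plus strand of chromosome 15 between 102967443 (Hoxc5) and 103036852 (Hoxc4), and the Hoxd genes on the plus strand of chromosome 2 between 74697727 (Hoxd9) and 74748442 (Hoxd3). The genes are packed closely, and some exons are shared between annotated genes. Hoxd3 shares 53.1% of its exon length with the same-strand gene Gm28230, Hoxa7 shares 20.4% with the opposite-strand Hoxaas3, Hoxa4 shares 16% with the opposite-strand Gm29430, and Hoxa2 shares 15% with the same-strand Gm28308. No source used here says whether the reads kept strand, so the levels of these genes and of Hoxa3, Hoxa9, Hoxb5 and Hoxc5, which share 1 or more exon stretches, are uncertain to that extent.

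Upstream sequence from RefSeq (GRCm38.p6) was matched for 12 of the 21 genes, in 13 windows. The 250 bases before the start are shown for Hoxa2, which kept the most reads in libraries poor in the other Hox genes. They are also shown for Hoxd8, which had the largest difference of medians, as log2(value + 1), between the library sets described below. Hoxb8 is shown as the other gene with a Hox-Pbx type motif. The 3 windows lie at chr6:52164832-52165081 (minus strand), chr2:74704365-74704614 (plus strand) and chr11:96281655-96281904 (plus strand). Capitals mark TGATNNAT (a composite motif of the kind bound by Hox with Pbx), CCAAT and TATAAA on either strand, so ATCAATCA and ATTGATCA are matches of the first.
Hoxa2: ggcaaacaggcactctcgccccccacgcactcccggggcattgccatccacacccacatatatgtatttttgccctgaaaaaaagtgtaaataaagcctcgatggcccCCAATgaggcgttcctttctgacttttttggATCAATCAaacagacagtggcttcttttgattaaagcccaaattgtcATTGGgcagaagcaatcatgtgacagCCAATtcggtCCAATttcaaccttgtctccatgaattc
Hoxd8: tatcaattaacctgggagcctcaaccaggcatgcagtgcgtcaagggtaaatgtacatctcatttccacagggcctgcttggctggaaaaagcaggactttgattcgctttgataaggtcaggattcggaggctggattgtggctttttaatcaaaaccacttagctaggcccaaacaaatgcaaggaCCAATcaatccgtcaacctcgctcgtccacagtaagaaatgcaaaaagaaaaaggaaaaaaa
Hoxb8: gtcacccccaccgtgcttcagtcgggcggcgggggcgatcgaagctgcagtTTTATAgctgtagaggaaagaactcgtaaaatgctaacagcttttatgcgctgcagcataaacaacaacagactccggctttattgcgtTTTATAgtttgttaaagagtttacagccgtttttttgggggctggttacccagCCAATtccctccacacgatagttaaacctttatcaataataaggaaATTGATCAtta
Among the 13 Hox windows, TGATNNAT was found in 2 (15.4%), Hoxa2 and Hoxb8, against 7.68% of 32851 windows of all genes. CCAAT was found in 6 (46.2%, against 33.8%) and TATAAA in 2 (15.4%, against 12.4%). The homeodomain core TAATTA, searched on both strands, was found in none, against 4.84%, which says only that these letters are not in these windows. The matches in the 3 printed windows did not overlap each other. Hoxa2 held 4 CCAAT matches, Hoxb8 and Hoxd8 held 1 each, and Hoxb8 also held 2 matches of TATAAA. Matches describe letters, and no binding was measured.

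Values below are normalised counts, a library-scaled count per megaread as deposited. Each library held 4.56 to 8.68 M reads (M, megareads). The targeted gene Jag1 was 18.8 to 54.7 in controls and 5.93 to 11.4 in mutants of the aortic valve, and 13.6 to 25.7 and 1.85 to 12.4 in the pulmonary valve, so it was lower in every mutant than in every control of its valve. Tbx20, a cushion transcription factor that checks the tissue label, was present in every library at 98.0 to 1744. Mylpf, a fast skeletal muscle light chain, ranged from 0.569 to 900. It was below 100 in 6 libraries (wild-type 2 and 4 and mutant 4 of the aortic valve, and the same numbers of the pulmonary valve; the low side) and at least 100 in the other 10 (the high side). This split was made from a measured level and not from the labels, so it is described without a test. These are bulk samples, in which fewer cells of a type and less RNA per cell cannot be told apart.

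Summed over the 21 genes, Hox transcripts were low in all 6 libraries with Mylpf below 100 and high in all 10 with Mylpf of at least 100. The sum was 173, 40.6, 219 and 3.51 in wild-type aortic libraries 1 to 4. It was 205, 124, 191 and 6.83 in mutant aortic libraries 1 to 4. Both aortic groups thus hold high and low libraries. In the pulmonary valve the sum was 172, 2.00, 97.1 and 4.16 in wild-type libraries 1 to 4, and 308, 95, 132 and 13.1 in mutant libraries. The range was 2.00 to 40.6 with Mylpf below 100 and 95 to 308 above, with no overlap. By group, 2 of 4 wild-type and 3 of 4 mutant libraries of each valve were on the high side. By litter, litters JNC10 and JND8 gave 4 libraries each, all high. Litters JGJ68 and JGH66 gave 2 each, all low, and in litter JND7 both wild-type libraries were low and both mutant libraries high.

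**Figure D1:**
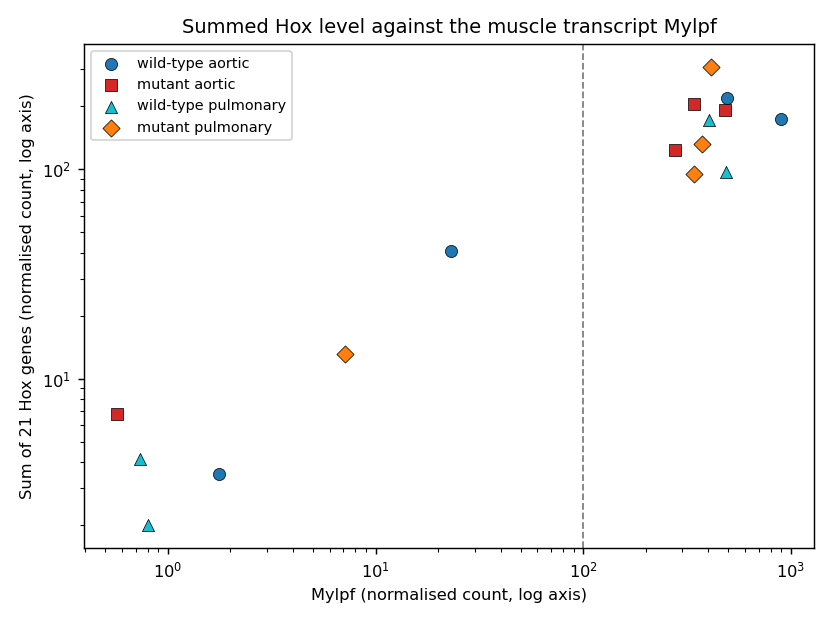
Summed normalised count of the 21 Hox genes (vertical, log axis) against Mylpf (horizontal, log axis) in 16 libraries, with symbols for the 4 groups and a dashed line at a Mylpf of 100. The 6 libraries left of the line lie at 2.00 to 40.6 and the 10 right of it at 95 to 308.

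Other marker sets moved with this split, and their part in the Hox difference was not tested. Leaving out Mylpf, which makes the split, 13 of 14 skeletal muscle markers were higher in each of the 10 high-Mylpf libraries than in any other, against 3.68% of all genes. Their sum was 2.28 to 40.1 below and 408 to 1644 above. The sum of 20 cushion and valve mesenchyme markers was 8397 to 10832 below and 1294 to 7519 above, and 6 of them (Tbx20, Vcan, Nfatc1, Gata4, Gata5 and Hand2) were lower in all 10, against 2.60% of all genes. Summed neuronal markers were 66.6 to 118 below and 85.0 to 838 above, Schwann cell markers 17.9 to 40.3 and 47.0 to 356, foregut epithelial markers 0.284 to 17.1 and 17.6 to 104, and cardiomyocyte markers 56.5 to 395 and 260.3 to 2145. The cartilage sum overlapped, at 675 to 979 below and 186 to 1005 above, but most of it below was Hapln1 (595 to 918 below and 69.3 to 469 above), a matrix link protein. Of 9 cartilage markers, 7 had the higher median on the high side, with a median difference of 1.46 on the log2(value + 1) scale, and Acan, the cartilage proteoglycan, was 0 to 7.37 below and 2.32 to 63.5 above. The epidermal sum also overlapped, at 106 to 214 and 127 to 329, with Dsp, a desmosome protein, at 102 to 182 and 22.8 to 212. Of 8 epidermal markers, 7 had the higher median on the high side, with a median difference of 3.76, and Trp63, a basal keratinocyte factor, was 0 to 2.35 below and 6.05 to 44.0 above. The macrophage sum was 51.7 to 108 and 52.8 to 127. Endothelial markers summed to 1048 to 2100 below and 201 to 1120 above.

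Each of the 21 Hox genes had the higher median in the high-Mylpf libraries. In the 5 low-Mylpf libraries other than wild-type aortic 2, only 1 to 2 of the 21 reached a value of 1. Most members thus met the filter, a value of 1 in at least 4 libraries, through the high side. Neither this direction nor the count of Hox genes apart is independent of that filter. For 9 of 21 (42.9%), every high-Mylpf library was above every other library: Hoxa3, Hoxa4, Hoxa7, Hoxa9, Hoxa10, Hoxb6, Hoxc4, Hoxc5 and Hoxd8. Among all 13963 genes tested, 3.68% were apart in that direction. The median difference of the Hox genes was 2.54 on the log2(value + 1) scale, against -0.01 over all genes, of which 49.4% were above 0. Wild-type aortic library 2, with Mylpf at 23.2, was the Hox-richest library of the low side; without it 14 of 21 Hox genes were apart, against 4.78% of all genes. The log2(value + 1) scale understates the change of low genes. Within the aortic valve alone 13 Hox genes were apart (12.2% of all genes), and within the pulmonary valve alone 15 (8.51%). At a Mylpf level of 300, which puts mutant aortic 2 (Mylpf 278) on the low side, 2 were apart, against 1.37% of all genes.

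**Figure D2:**
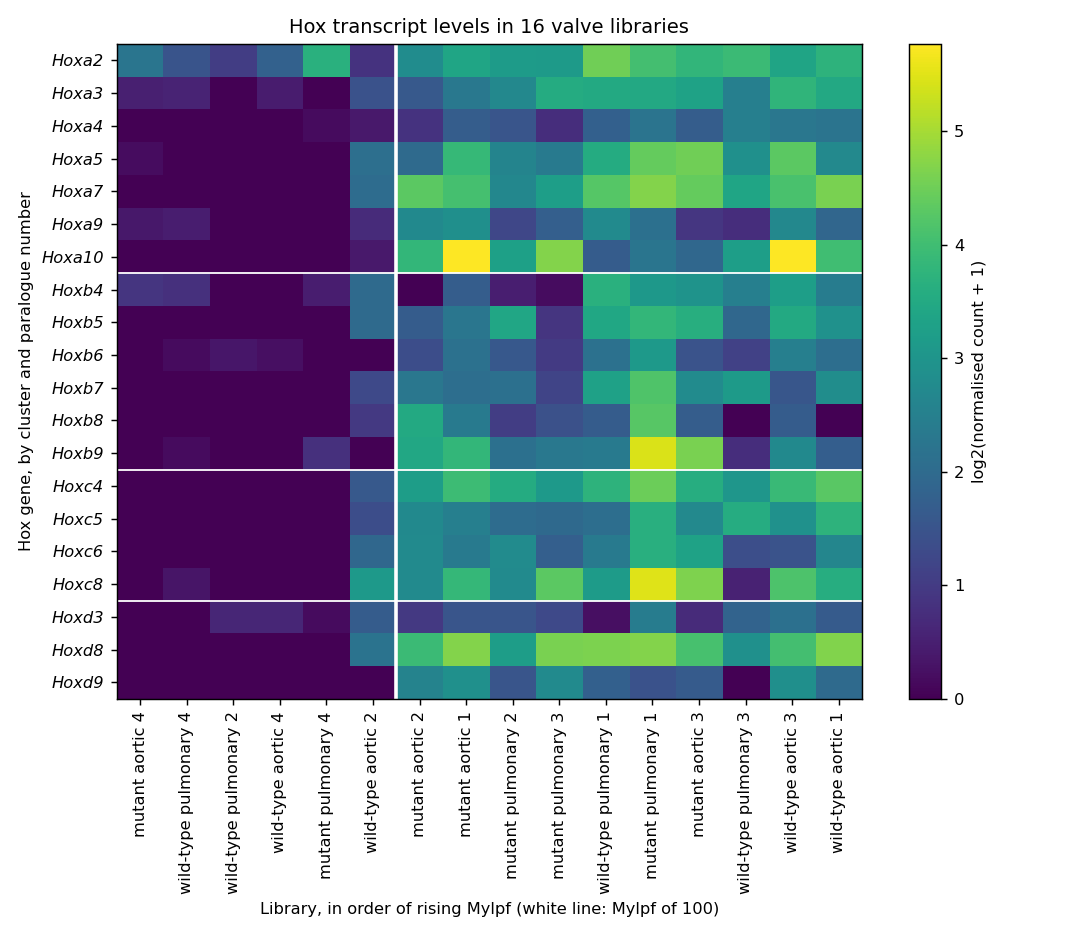
Level of 20 of the 21 Hox genes (vertical, by cluster and paralogue number) in each library (horizontal, ordered by rising Mylpf, white line at a Mylpf of 100), as log2(normalised count + 1). In the 5 leftmost libraries most squares from Hoxa5 to Hoxd9 are at 0 while Hoxa2 is not, and wild-type aortic library 2 is the one low-Mylpf library in which 18 of 21 genes have reads.

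The anterior genes, paralogues 1 to 3, held most of the Hox reads in 5 of the 6 low-Mylpf libraries. Hoxa2, which sets the identity of the second pharyngeal arch and hindbrain, was 12.2, 0.783, 9.33 and 2.46 in wild-type aortic libraries 1 to 4, 9.53, 5.95, 12.9 and 3.70 in mutant aortic libraries, 22.0, 1.07, 14.4 and 1.84 in wild-type pulmonary libraries and 15.4, 7.92, 7.84 and 11.6 in mutant pulmonary libraries. It had reads in all 16 libraries, and mutant pulmonary 4, with a Mylpf of 7.16, lay above 5 of the 10 high-Mylpf libraries. In that library Hoxa2 took 94 of 106 Hox reads (88.7%), and no read fell on any of the 10 genes of paralogues 5 to 8, which with a depth of 7.46 M reads allows up to 3 reads. Hoxa3, needed for derivatives of the third arch such as the thymus, was 10.2, 1.72, 12.7 and 0.351 in wild-type aortic libraries 1 to 4, 3.96, 2.04, 8.96 and 0.427 in mutant aortic libraries, 10.4, 0, 4.63 and 0.489 in wild-type pulmonary libraries and 10.2, 5.50, 10.6 and 0 in mutant pulmonary libraries. It was at most 1.72 below a Mylpf of 100 and at least 2.04 above it. Hoxd3 was 2.17, 2.19, 3.41 and 0.526 in wild-type aortic libraries 1 to 4, 1.86, 0.940, 0.631 and 0 in mutant aortic libraries, 0.171, 0.534, 2.55 and 0 in wild-type pulmonary libraries and 4.33, 1.88, 1.40 and 0.124 in mutant pulmonary libraries. Its libraries overlapped, since wild-type pulmonary 1 was at 0.171 with high Mylpf, and it is the member with most shared exon length.

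The make-up of the Hox reads differed along the low side. The 5 low-Mylpf libraries other than wild-type aortic 2 held 223 Hox reads in 33.5 M reads. Of these, 188 fell on the 4 genes of paralogues 1 to 3 and 157 on Hoxa2 alone. Pooled, this is 4.69 Hoxa2 reads per megaread (95% Poisson interval 3.98 to 5.48, counting error only). Mutant pulmonary 4 gave 94 of the 157, at 12.6 per megaread, and the other libraries of this set were at most 3.93. Each library thus lay outside the pooled interval, which does not describe a typical library. The 10 genes of paralogues 5 to 8 had 7 reads, or 0.209 per megaread (0.0840 to 0.431), the 4 genes of paralogues 9 and 10 had 12, and the 3 of paralogue 4 had 16. Hoxa2 took 44.1% to 88.7% of each library's Hox sum. Wild-type aortic 2 was made up otherwise, with 259 Hox reads, 175 of them on paralogues 5 to 8 (67.6%) and 5 on Hoxa2 (1.93%). The 10 high-Mylpf libraries held 12427 Hox reads in 73.2 M reads, with 2675 on paralogues 9 and 10, and 808 on Hoxa2. Paralogues 5 to 8 had 6714, or 91.7 per megaread when pooled (89.5 to 94.0, counting error only), and their normalised sum was 47.3 to 193 by library. There Hoxa2 took 4.26% to 14.8% of the sum and paralogues 5 to 8 took 43.2% to 62.6%. A read count grows with transcript length, and reads amplified without molecular identifiers need not be separate molecules.

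**Figure D3:**
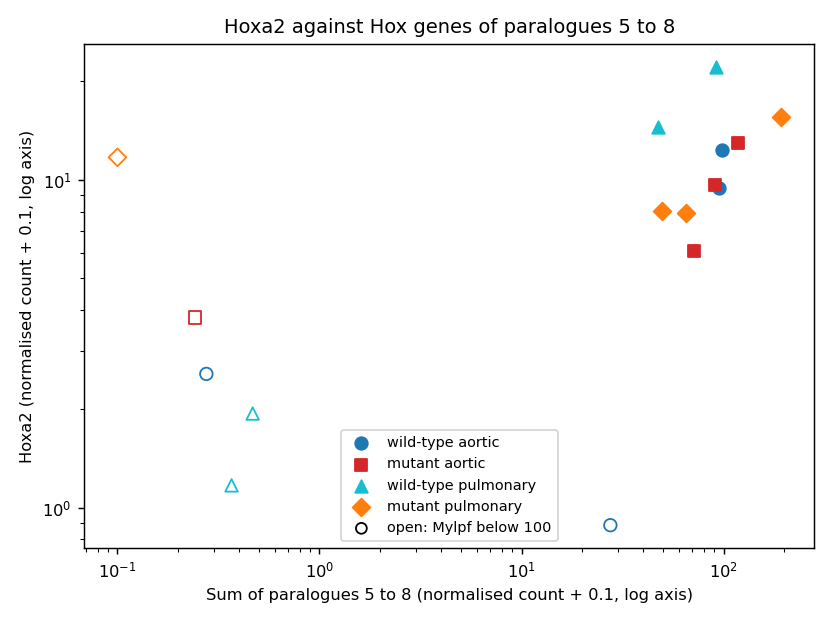
Hoxa2 (vertical) against the sum of the 10 genes of paralogues 5 to 8 (horizontal), both as normalised count + 0.1 on log axes, in 16 libraries with symbols for the 4 groups and open symbols for Mylpf below 100. Mutant pulmonary 4 (open diamond) combines 11.6 of Hoxa2 with 0 of the others, and wild-type aortic 2 (open circle, lower right) has 0.783 of Hoxa2.

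Paralogues 5 to 8, 10 of the 21 genes, took 43.2% to 62.6% of the Hox sum in each high-Mylpf library. On the log2(value + 1) scale Hoxd8 and Hoxa7 had the largest differences of side medians. Where the low-side median is 0, this difference follows the high-side level and does not rank the split. Pooled reads per megaread were 4.59 (low side) and 91.7 (high side) for paralogues 5 to 8, and 0.454 and 36.5 for paralogues 9 and 10. Wild-type aortic 2 gave 175 of the 182 low-side reads of paralogues 5 to 8. Without that library the low-side values were 0.209 for paralogues 5 to 8 and 0.358 for paralogues 9 and 10. The pooled values thus do not rank the split of these classes either. Hoxd8 was 24.4, 3.60, 15.4 and 0 in wild-type aortic libraries 1 to 4, 25, 14.3, 16 and 0 in mutant aortic libraries, 23.7, 0, 6.49 and 0 in wild-type pulmonary libraries and 24.8, 8.19, 23.5 and 0 in mutant pulmonary libraries. Its lowest high-Mylpf library, wild-type pulmonary 3, was above its highest low-Mylpf library, wild-type aortic 2, and the other 5 low libraries had no read. Hoxa7, a patterning gene of the thoracic axial skeleton, was 23.5, 3.13, 16.3 and 0 in wild-type aortic libraries 1 to 4, 15.7, 18.8, 20.2 and 0 in mutant aortic libraries, 17.9, 0, 9.50 and 0 in wild-type pulmonary libraries and 24.9, 5.37, 8.40 and 0 in mutant pulmonary libraries. It had the same order, with wild-type aortic 2 the one low-Mylpf library with reads. Hoxc4 was 18.6, 2.04, 13.9 and 0 in wild-type aortic libraries 1 to 4, 14.6, 8.30, 11.1 and 0 in mutant aortic libraries, 12.3, 0, 7.18 and 0 in wild-type pulmonary libraries and 21.3, 10.7, 7.56 and 0 in mutant pulmonary libraries. It too was 0 in 5 low-Mylpf libraries, and it had the narrowest spread of the high side, 2.96-fold from lowest to highest. The differences of the side medians were 4.35 for Hoxd8, 4.18 for Hoxa7 and 3.66 for Hoxc4 on the log2 scale.

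Hoxa5, a gene of lung and cervical to upper thoracic development, was 5.57, 3.29, 18.8 and 0 in wild-type aortic libraries 1 to 4, 13.5, 2.98, 22.1 and 0.142 in mutant aortic libraries, 10.7, 0, 6.49 and 0 in wild-type pulmonary libraries and 20.1, 5.10, 4.20 and 0 in mutant pulmonary libraries. Its sides met, because wild-type aortic 2 was above mutant aortic 2. Hoxb5 was 6.52, 2.98, 10.4 and 0 in wild-type aortic libraries 1 to 4, 3.84, 2.19, 11.2 and 0 in mutant aortic libraries, 9.89, 0, 2.78 and 0 in wild-type pulmonary libraries and 13.2, 9.66, 0.840 and 0 in mutant pulmonary libraries. Here wild-type pulmonary 3, mutant pulmonary 3 and mutant aortic 2 lay below wild-type aortic 2. Hoxc8, a gene of the thoracic body level and brachial motor neurons, was 11.0, 7.68, 16.9 and 0 in wild-type aortic libraries 1 to 4, 13.4, 5.80, 24.2 and 0 in mutant aortic libraries, 8.02, 0, 0.463 and 0.245 in wild-type pulmonary libraries and 43.8, 5.77, 18.8 and 0 in mutant pulmonary libraries. It was 7.68 in wild-type aortic 2, above 3 of the high-Mylpf libraries, and 0.463 (2 reads) in wild-type pulmonary 3, while mutant pulmonary 1 stood at 43.8. Hoxc4, Hoxc5, Hoxc6 and Hoxc8 together had reads in 2 of the 6 low-Mylpf libraries: wild-type aortic 2, and wild-type pulmonary 4 with 0.245 of Hoxc8 alone.

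Posterior genes were near or at 0 in the low-Mylpf libraries, as were paralogues 5 to 8 in those other than wild-type aortic 2. Hoxa10, a gene of lumbar and hindlimb levels, was 14.9, 0.313, 53.5 and 0 in wild-type aortic libraries 1 to 4, 52.8, 13.2, 2.77 and 0 in mutant aortic libraries, 2.22, 0, 8.34 and 0 in wild-type pulmonary libraries and 3.74, 8.72, 25.1 and 0 in mutant pulmonary libraries. Its 2 highest libraries, wild-type aortic 3 and mutant aortic 1, stood at 53.5 and 52.8, and the high side spread 24.1-fold. Hoxd9 was 2.99, 0, 6.37 and 0 in wild-type aortic libraries 1 to 4, 6.44, 5.01, 2.14 and 0 in mutant aortic libraries, 2.39, 0, 0 and 0 in wild-type pulmonary libraries and 1.75, 1.88, 5.74 and 0 in mutant pulmonary libraries. It had no read in all 6 low-Mylpf libraries, a total of 39.6 M reads that allows up to 0.0757 per megaread (3 reads), and none in wild-type pulmonary 3, the shallowest library. Hoxb9, a gene of thoracic levels, was 2.31, 0, 5.63 and 0 in wild-type aortic libraries 1 to 4, 13.1, 10.02, 23.3 and 0 in mutant aortic libraries, 4.09, 0, 0.695 and 0.122 in wild-type pulmonary libraries and 42.3, 3.36, 3.92 and 0.741 in mutant pulmonary libraries. It was at most 0.741 on the low side, and mutant pulmonary 1 stood at 42.3 with the next library at 23.3. Hoxb8 was 0, 0.940, 2.22 and 0 in wild-type aortic libraries 1 to 4, 4.08, 10.3, 2.27 and 0 in mutant aortic libraries, 2.22, 0, 0 and 0 in wild-type pulmonary libraries and 18.4, 1.07, 1.68 and 0 in mutant pulmonary libraries. It had no read in 5 of the 6 low-Mylpf libraries and in 2 of the 10 others.

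Another 7 genes are given by their ranges. On the high side Hoxa4 was 0.700 to 4.63, Hoxa9 0.695 to 6.31 and Hoxb6 0.980 to 7.60, each above the low side, where they reached 0.313, 0.627 and 0.267. Hoxc5 was 2.94 to 12.2 against at most 1.57. Hoxb4 (0 to 11.6), Hoxb7 (1.26 to 17.1) and Hoxc6 (1.62 to 11.5) overlapped the low side, which reached 2.98, 1.41 and 2.82.

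Levels of different genes can be compared only per length, as normalised count per kilobase of annotated exon. By the median of the high-Mylpf libraries, Hoxd8 was highest at 7.2 per kilobase, followed by Hoxa2 at 6.13, Hoxa7 at 5.95, Hoxa5 at 4.59, Hoxc4 at 4.55, Hoxc8 at 4.30 and Hoxa10 at 3.35. The lowest were Hoxd3 at 0.446 and Hoxa9 at 0.547. On the same scale the low-Mylpf median was 1.21 for Hoxa2, 0.215 for Hoxb4 and 0 for 14 genes. Neighbours in this order overlapped across libraries, and in none of the 4 clusters did the levels follow the paralogue number. By cluster, the high-Mylpf libraries held 37.7 to 122 of summed Hoxa, 8.82 to 106 of Hoxb, 20.2 to 88.0 of Hoxc and 9.03 to 33.3 of Hoxd.

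Within the 10 high-Mylpf libraries, mutant pulmonary 1 was highest for 10 genes (Hoxa7, Hoxb5, Hoxb6, Hoxb7, Hoxb8, Hoxb9, Hoxc4, Hoxc6, Hoxc8 and Hoxd3), and its Hoxb sum of 106 compared with at most 51.3 in the other 9. That library also had the highest sums of neuronal (838) and Schwann cell (356) markers, and their part in the Hox levels was not tested. Of the same 10 libraries, 5 had Tbx20 below 300 and a Hox sum of 172 to 308, against 95 to 191 in the 5 others. Hoxb6 and Hoxc4 were above in all 5 Tbx20-poor libraries, 2 of 21 genes against 2.04% of all genes, and 0 of 21 were below in all 5, against 5.87%. The median Hox difference between these sets was 0.71 on the log2 scale against 0.01 over all genes.

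For mutant against wild type, no Hox gene passed an adjusted p of 0.05 by limma in the aortic valve, the pulmonary valve or their mean. None of the 13963 genes passed either (0% called in each comparison), with 196, 437 and 389 genes at an unadjusted p under 0.05 for the aortic, pulmonary and mean comparisons. Among the 21 Hox genes those numbers were 0, 0 and 1. On the recovered reads, edgeR called 0 and DESeq2 called 0, 2 and 5 of all genes, and neither called a Hox gene, with 2 Hox genes each at an unadjusted p under 0.05 for the mean. The median Hox log2 difference, mutant minus wild type, was 0.33 in the aortic valve (14 of 21 above 0), 0.74 in the pulmonary valve (19 of 21) and 0.55 for the mean (17 of 21), while 52.8%, 50.9% and 52.2% of all genes were above 0. Mutants held 3 and controls 2 high-Mylpf libraries per valve, and the skeletal muscle markers leaned the same way, with 14 of 15 above 0 for the mean and a median of 0.62. With the Mylpf split as a covariate the median Hox difference turned to -0.43 in the aortic valve (5 of 21 above 0), stayed above 0 at 0.12 in the pulmonary valve (13 of 21) and turned to -0.20 for the mean (6 of 21). With only the high-Mylpf libraries these medians were -0.22, 0.24 and -0.09. With library weights they went the other way, to 1.00 (19 of 21 above 0), 1.45 (20 of 21) and 1.27 (20 of 21), with 8 Hox genes at an unadjusted p under 0.05 for the mean and none past adjustment. Leaving out wild-type aortic 4 turned the aortic median to -0.46 (5 of 21 above 0). Replicates are separate labelled samples, but nothing says they are separate embryos, so p-values measure the spread between these samples.

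**Figure D4:**
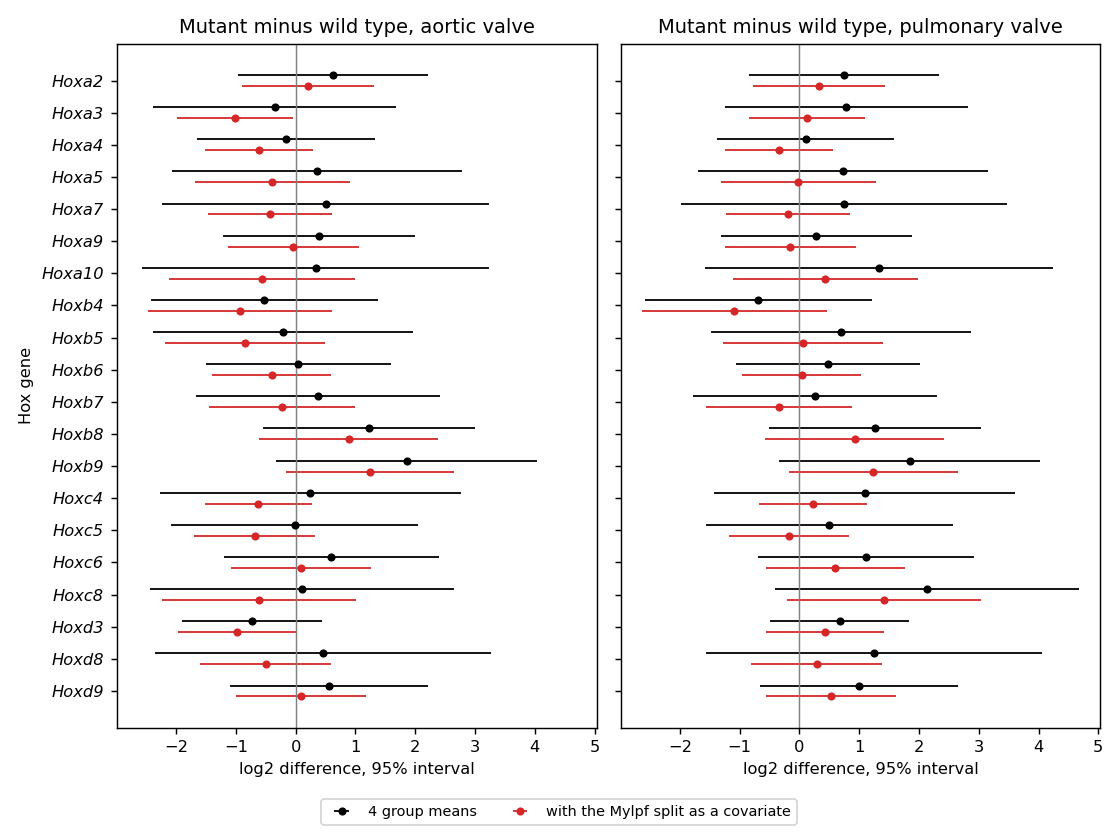
Log2 difference, mutant minus wild type, of 20 of the 21 Hox genes (vertical) in the aortic (left) and pulmonary (right) valve, with 95% intervals from limma, for 4 group means (black) and with the Mylpf split as a covariate (red). All black intervals span 0, and the black points of Hoxb9 lie at 1.86 (aortic) and 1.85 (pulmonary).

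Hoxb9 had the largest genotype difference of the mean. In the aortic valve wild-type libraries averaged 1.98 ± 2.66 and mutants 11.6 ± 9.61, and in the pulmonary valve they averaged 1.23 ± 1.93 and 12.6 ± 19.9 (SD, n = 4 each). The mean log2 difference was 1.85 (SE 0.73, 95% interval 0.31 to 3.39), with an unadjusted p of 0.021 and an adjusted p of 1.00 by limma. The mutant was higher in 7 of 8 litter pairs and tied at 0 in the other, a pattern looked for after its values were seen and met by 0.544% of all genes. The 8 pairs came from 5 litters, so they are not 8 separate litters. In litter JND7 both controls were on the low-Mylpf side (Hoxb9 at 0) and both mutants on the high side (10.02 and 3.36). There genotype and side cannot be told apart. With litter as a block the limma difference was the same, with an SE of 0.40 and an adjusted p of 0.372. The difference was 1.24 with the Mylpf covariate and 1.73 with only the high-Mylpf libraries, and 1.39 without mutant pulmonary 1. Neuronal markers leaned the same way, with 8 of 9 above 0 and a median of 0.81. So did cartilage markers (9 of 9, median 0.43), other positional factors (19 of 21, 0.54) and skeletal muscle markers (14 of 15, 0.62). Further lists also had a median above 0, such as noncoding RNAs of the clusters (2 of 3, 0.48), endothelial markers (6 of 9, 0.23) and cushion markers (13 of 20, 0.15). Some had a median below 0, such as red cell markers (1 of 9, -0.77) and macrophage markers (4 of 10, -0.05). The part of these lists was not tested.

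Hoxd8 was higher in the mutant of 6 litter pairs and tied in 2, as was Hoxb8, which lies next to Hoxb9. The share of all genes with this pattern was not counted, and the limits given for the pairs of Hoxb9 hold here too. For Hoxd8 some of these pairs were nearly level. Wild type and mutant were 24.4 and 25 in aortic pair 1, 15.4 and 16 in aortic pair 3, and 23.7 and 24.8 in pulmonary pair 1. For Hoxb8 the wild-type and mutant means were 0.791 ± 1.05 and 4.17 ± 4.44 in the aortic valve, and 0.554 ± 1.11 and 5.28 ± 8.75 in the pulmonary valve (SD, n = 4 each). The limma difference of the mean was 1.25 (SE 0.59), with an adjusted p of 1.00. Hoxc8 had the largest pulmonary difference, 2.13 (SE 1.2), with wild-type libraries at 2.18 ± 3.90 and mutants at 17.1 ± 19.5, and the groups overlapped. In the aortic valve 7 of 21 genes lay below 0. The lowest were Hoxd3 at -0.73 (SE 0.55), Hoxb4 at -0.53 (SE 0.90) and Hoxa3 at -0.35 (SE 0.96). In the pulmonary valve Hoxd3 was at 0.67, Hoxb4 at -0.69 and Hoxa3 at 0.79.

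The genotype difference was compared between valves by the interaction of the limma model, and no Hox gene and none of all genes passed (0% called, 264 genes and no Hox gene at an unadjusted p under 0.05). The largest interaction for its error was that of Hoxd3, at 1.40 (SE 0.78, pulmonary minus aortic). Its wild-type and mutant means were 2.08 ± 1.18 and 0.857 ± 0.773 in the aortic valve, and 0.813 ± 1.18 and 1.93 ± 1.76 in the pulmonary valve (SD, n = 4 each). Between valves, again with 0% of all genes called by limma, 18 of 21 Hox genes were lower in the pulmonary valve of wild type, with a median log2 difference of -0.58, while 49.98% of all genes were above 0. Leaving out 1 library moved this median between -1.16 (without wild-type aortic 4) and -0.11 (without wild-type pulmonary 2). Without wild-type aortic 3 it was -0.14, with 11 of 21 lower. With all libraries, the largest single difference was Hoxc8 at -1.71 (SE 1.2), and for Hoxd3 it was -0.85 (SE 0.55). Among mutants the valve difference had a median of -0.05, with 10 of 21 above 0 (-0.73 without mutant aortic 4 and 0.54 without mutant pulmonary 4), and Hoxa2 was at 0.44 (SE 0.75) and Hoxd3 at 0.55 (SE 0.55). The unadjusted p was under 0.05 for 153 genes in wild type and 67 in mutants, with no Hox gene among them.

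The TALE cofactors of Hox proteins were present on both sides of the split. Of 9 listed, 8 were tested. Meis2, a homeodomain cofactor with roles in cardiac neural crest, was the one whose sides did not meet, at 350 to 454 with Mylpf below 100 and 64.6 to 288 above; 2.60% of all genes were apart in that direction. Pbx2 was 33.3 to 76.0 below and 53.1 to 69.4 above, and Pbx3 45.5 to 79.2 and 36.4 to 76.9. Meis1 was 66.7 to 100.2 and 27.2 to 103, Meis3 10.5 to 21.4 and 6.52 to 23.9, Pknox1 15.6 to 38.5 and 25 to 70.5, and Pknox2 14.2 to 32.5 and 16.5 to 41.7. For genotype, 0 of 8 passed by limma in either valve, and the mean log2 differences ranged from -0.32 for Meis1 (SE 0.24) to 0.36 for Meis3 (SE 0.25).

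No tested regulator or neighbour of the clusters had its sides apart. Among all genes 3.68% were apart higher and 2.60% lower, so in lists this short 0 is near those shares. Of 20 listed Hox regulators, such as Polycomb and MLL subunits, 16 were tested and 0 were apart, with sums of 1565 to 1846 below and 1585 to 2040 above. Sides that meet can still differ in level, and Kmt2a had medians of 367 below and 203 above (345 to 439 and 145 to 407). The higher median was on the high side for 9 of the 16 regulators. The 8 tested neighbours of the clusters had 0 apart. Among 3 tested noncoding RNAs, Hoxb3os was apart (as were 3.68% of all genes) at 0 to 4.23 below and 5.07 to 16.8 above. Hoxaas3 met at 0.470 (0 to 0.470 and 0.470 to 7.57), and Hotairm1 overlapped at 0.711 to 3.60 and 1.11 to 4.67. Egr2, a hindbrain regulator of Hox genes, had the smallest genotype p of the regulators, with a mean limma difference of -1.43 (SE 0.52) that did not pass after adjustment. Of 21 tested other positional factors, 5 were higher in all 10 high-Mylpf libraries (3.68% of all genes were), among them Tbx15 (0 to 6.81 against 26.3 to 154), Tbx18 (3.95 to 11.6 against 12.5 to 68.4), Six2 (0 to 1.57 against 2.08 to 23.1) and Emx2 (0 to 0.157 against 0.537 to 35.0). Tbx15 is known from body-wall mesenchyme. Hand2, a factor of the outflow and arches, was lower in all 10 (72.3 to 115 against 6.65 to 49.1), as were 2.60% of all genes. No gene of these lists passed for genotype or valve by limma.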

How the data were processed

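RNA from 16 laser-captured valve samples was amplified and sequenced, 4 libraries in each of 4 groups taken from the labels. Per the submitters' processing notes the build was GRCm38 and the tools RSEM 1.2.3, cutadapt 1.6, CASAVA 1.8.2 and FastQC. The sources used here do not say how the values were scaled and filtered or how regions were chosen. The deposited table holds a normalised signal per gene that the authors scaled per library; each value is a whole multiple of 1 step, and 100% were whole within 0.05 read. RSEM shares reads between similar genes. From the deposited values, log2(value + 1) was tested with limma 3.58.1 in R 4.3.3, in 1 model of 4 group means with a mean-variance trend, two-sided with Benjamini-Hochberg adjustment over 13963 genes that reached a value of 1 in at least 4 libraries; all 21 Hox genes passed. edgeR 4.0.16 and DESeq2 1.42.0 on the recovered reads were alternatives. Symbols came from the annotation, and 184 identifiers had none. The Hox genes and the other gene lists were chosen with earlier results of these data known.

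Values in every library were given for the 2 members of each cluster with the highest mean, the 8 with the largest difference across the Mylpf split, and the 2 with the smallest p in each comparison; others were given by range. Values of some genes are not reported here. Cofactors were named, and from other lists those with the smallest p or with sides apart, the latter after their values were seen.

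Per the labels, a mutant library shares its litter with the control of the same number and valve. Deviations from the group means correlated within the aortic pairs at 0.48, 0.01, 0.20 and 0.64, and within the pulmonary pairs at 0.49, -0.03, 0.07 and 0.45. Depth was 4.56 to 8.68 M recovered reads, so 3 reads in a library correspond to a normalised value of 0.351 to 0.695. Scripts were tested on simulated data.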

Additional observations from a re-analysis of the deposited data

Results flagged for a closer look

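Within a group of 4, a library was singled out when its gap to the nearest other library, as a share of the group's range, was above Dixon's 95% critical value. Of 84 combinations of a group with a gene or the Hox sum, 8 met this. For normally distributed values chance gives about 1 in 20, or 4.2. The rule was run on untransformed values, and each group mixes low-Mylpf and high-Mylpf libraries. The chance rate need not hold here, so 8 against 4.2 shows no excess. The 84 combinations are not independent, because the genes share libraries.

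Wild-type pulmonary 1 stood high for 5 genes: Hoxa9 at 5.80 (next 0.695), Hoxb8 at 2.22 (next 0), Hoxb9 at 4.09 (next 0.695), Hoxc8 at 8.02 (next 0.463) and Hoxd9 at 2.39 (next 0). It is 1 of 2 wild-type pulmonary libraries with Mylpf of at least 100, and the other, wild-type pulmonary 3, is the shallowest library. Mutant pulmonary 1 stood high for Hoxb4 at 7.37 (next 0.403), Hoxb8 at 18.4 (next 1.68) and Hoxb9 at 42.3 (next 3.92).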

How the results depend on the processing

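No Hox gene passed the threshold for genotype or valve in any setting run: another pseudocount or filter, quantile scaling, library weights, the Mylpf split as covariate, only high-Mylpf libraries, edgeR, DESeq2 and each library left out. Counts over all genes, 0 in the limma model as designed, moved slightly. With only the high-Mylpf libraries they were 3 (aortic), 2 (pulmonary) and 3 (mean), with the Mylpf covariate 2 for the mean, and with DESeq2 2 (pulmonary) and 5 (mean). Leaving out 1 library gave 0 to 2 genes (aortic, 2 without wild-type aortic 4) and 0 to 3 (mean, 3 without wild-type aortic 4 and 2 without wild-type pulmonary 2). The median Hox difference in the aortic valve ran from -0.46 to 0.98 as single libraries were left out. It ran from 0.24 to 1.47 in the pulmonary valve, from 0.17 to 0.87 for the mean and from -0.15 to 1.12 for the interaction. Between valves it ran from -1.16 to -0.11 in wild type and from -0.73 to 0.54 in mutants.

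With litter as a replicate block, the mean comparison called 1 gene, and 3 with the Mylpf covariate added, a setting chosen after seeing the data; neither included a Hox gene. The block changed no other call, and with the block alone the median Hox difference of the mean stayed at 0.55. With the Mylpf covariate added, this median was -0.01 (10 of 21 above 0). With the block alone, limma put 1 (aortic), 3 (pulmonary) and 4 (mean) Hox genes at an unadjusted p under 0.05. In the model as designed these counts were 0, 0 and 1.

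The count of Hox genes apart across the split, 9 as described, was 2 at a Mylpf level of 300, 9 at a level of 30, 8 with quantile scaling, 15 in the pulmonary valve alone, and 9 to 14 with 1 library left out (14 without wild-type aortic 2, chosen after seeing the data). A level of 300 moves mutant aortic 2, with Mylpf at 278, to the other side, and only 1.37% of all genes were then apart. The median difference of the Hox genes stayed between 2.35 and 2.73 over these left-out libraries. Low-side Hox counts rest on few reads, so differences among those libraries were limited by depth.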
